A study of Caenorhabditis elegans with 2 samples.

Results

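The histone genes of Caenorhabditis elegans were taken as the protein-coding genes whose symbol starts with his- or hil-, which gave 80 of 19973 protein-coding genes on the 6 chromosomes. By the RefSeq product names they were 17 genes for H2A, 16 for H2B, 15 for H3, 16 for H4 and 5 for H3.3 or H3.3-like proteins, with 9 linker histone (H1) genes and 2 short genes, his-39 and his-73, named only for a histone fold domain. The homeobox protein CEH-83 had been mapped by ChIP-seq with an anti-GFP antibody in embryos of mixed stages and mixed sex, given an age of 1 hour after egg bleaching. The animals were strain OP727, with the mutation unc-119(tm4063) and the integrated transgene wgIs727, which makes CEH-83 with TY1, EGFP and 3xFLAG tags and carries a rescuing unc-119(+). Both biological replicates were of this kind, there was no second group, and no library of untagged animals was analysed here, so a peak here is a called region, with no measure of what untagged animals would give there. The deposited lists were 1258 regions passing an irreproducible discovery rate threshold (the IDR list) and relaxed lists of 30000 regions each for the pooled reads, replicate 1 and replicate 2.

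Histones H2A, H2B, H3 and H4 form the protein core that DNA is wound around, and linker histones sit on the DNA between such cores. Genes for the core histones are used mainly when DNA is copied, as in the dividing cells of an embryo, while H3.3 is laid down also outside S phase. In worms most core histone genes stand in small clusters in which an H3 gene and an H4 gene, or an H2A gene and an H2B gene, are transcribed away from a shared stretch of DNA.

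Among the 80 genes, 62 stood in 31 such divergent pairs, with 14 pairs of H3 and H4, 16 of H2A and H2B, and 1 of H2A and H4 (his-67/his-68). The DNA between the gene starts was 227 to 368 bp long (median 258). Only 21 distinct sequences filled these 31 spaces, and 16 pairs shared theirs base for base with another pair. The 6 sequences printed here show both kinds, spaces found at a single place in the genome (his-60/his-59 and his-2/his-1) and spaces found at 2 to 4 places. Each is read towards the H4 or H2B gene, on assembly ce11 (WBcel235), and capitals mark TATAAA or CCAAT on either strand. The first and the last hold neither.
his-60/his-59, chrIV:7487993-7488248, - strand: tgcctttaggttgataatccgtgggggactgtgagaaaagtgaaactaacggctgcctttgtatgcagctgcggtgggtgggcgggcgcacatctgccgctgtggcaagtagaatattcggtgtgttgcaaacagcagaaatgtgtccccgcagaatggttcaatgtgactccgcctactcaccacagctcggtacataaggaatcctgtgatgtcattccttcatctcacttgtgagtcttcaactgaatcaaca
his-2/his-1, chrV:16042284-16042519, + strand: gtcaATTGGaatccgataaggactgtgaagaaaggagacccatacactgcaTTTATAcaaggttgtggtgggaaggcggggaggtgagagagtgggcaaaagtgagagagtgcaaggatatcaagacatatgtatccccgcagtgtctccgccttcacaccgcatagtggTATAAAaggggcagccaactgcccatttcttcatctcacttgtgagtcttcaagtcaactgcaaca
his-50/his-49, chrV:8847705-8847942, - strand: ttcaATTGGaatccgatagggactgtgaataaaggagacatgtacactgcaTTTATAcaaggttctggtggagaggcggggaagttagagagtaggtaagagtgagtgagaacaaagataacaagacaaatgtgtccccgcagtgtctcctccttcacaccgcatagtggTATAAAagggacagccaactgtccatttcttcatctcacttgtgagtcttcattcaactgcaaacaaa
his-10/his-9, chrII:13823376-13823647, - strand: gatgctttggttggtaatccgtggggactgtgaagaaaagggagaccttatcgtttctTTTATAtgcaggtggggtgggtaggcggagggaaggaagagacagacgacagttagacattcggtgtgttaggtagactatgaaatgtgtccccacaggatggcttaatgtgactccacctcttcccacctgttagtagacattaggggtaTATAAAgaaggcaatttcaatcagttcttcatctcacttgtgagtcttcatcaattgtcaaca
his-51/his-52, chrV:8850172-8850463, + strand: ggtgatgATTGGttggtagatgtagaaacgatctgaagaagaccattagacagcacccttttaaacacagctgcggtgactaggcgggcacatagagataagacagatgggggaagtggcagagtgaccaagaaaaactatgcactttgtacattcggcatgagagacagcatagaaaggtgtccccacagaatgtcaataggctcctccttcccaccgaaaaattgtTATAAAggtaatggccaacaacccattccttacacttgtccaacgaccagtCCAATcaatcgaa
his-16/his-15, chrII:13818144-13818370, + strand: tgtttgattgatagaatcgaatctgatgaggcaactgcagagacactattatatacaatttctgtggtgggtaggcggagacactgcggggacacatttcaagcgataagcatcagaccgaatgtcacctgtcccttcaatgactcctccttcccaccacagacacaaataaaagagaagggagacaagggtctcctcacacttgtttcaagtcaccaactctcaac

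The his-10/his-9 space was present 3 times, also between his-14 and his-13 and between his-25 and his-26. The his-50/his-49 space recurred between his-28 and his-27. The his-51/his-52 space occurred 4 times in the chromosome V clusters and the his-16/his-15 space 3 times in the chromosome II cluster. The spaces of his-46/his-45 and his-55/his-56 differed at 1 of 258 bases (99.6% identity). The spaces of his-2/his-1 and his-6/his-5 were both 236 bp long and differed at 29 positions (87.7%). TATAAA stood in 24 of the 31 spaces. Counted from the first base printed, it began at positions 52 and 171 in his-2/his-1, his-6/his-5, his-50/his-49, his-28/his-27 and his-17/his-18 alike.

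Few histone genes had an IDR summit, and those that did shared a handful of peaks. A summit counted for a gene when it lay from 1000 bp upstream to 200 bp downstream of the gene start. By this rule 8 of the 80 genes (10%, 95% Clopper-Pearson interval 4.42 to 18.8) had an IDR summit, beside 3.02% of all protein-coding genes. They were his-31, his-37, his-60 and his-67 for H4, his-42 and his-59 for H3, his-68 for H2A and the linker histone gene his-24, and no H2B gene was among them. The 8 genes rested on 7 peaks, of which 2 served a divergent pair and 2 lay side by side at his-37. A pooled summit was present at 30 genes (37.5%, 26.9 to 49), beside 35.7% of all genes. Replicate 1 had a summit at 28 genes (all genes 35.6%) and replicate 2 at 31 (all genes 35.3%), and 23 genes had a summit in all 3 relaxed lists (all genes 24.3%). Among the genes with a pooled summit, 8 of 30 (26.7%, 12.3 to 45.9) also had an IDR summit, beside 8.46% of all such genes. No list held a summit at 45 of the 80, while 46.6% of all genes had one in at least 1 list. The median position was −184.5 for the genes' IDR summits (all genes −274) and −441.5 for their pooled summits (all genes −315), in bp from the gene start with minus for upstream. Genes that share a peak or a cluster are not independent, so these intervals cover counting error only and are too narrow.

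The histone genes split sharply by whether their promoter window was repeated elsewhere in the genome. Uniqueness was measured as the percentage of 31-base words of the window that occur at 1 place in the genome. It was under 50% at 43 of the 80 genes (53.8%), but at only 659 of all 19973 (3.3%), and at 20 histone genes it was 0. All 43 were core histone genes: 13 of 17 H2A, 13 of 16 H2B, 8 of 15 H3 and 9 of 16 H4 genes. Of these 43, only his-7, his-17 and his-64 had a pooled summit (6.98%, beside 5.92% of all genes with such windows), none had an IDR summit (3 of the 659, 0.46%), and 36 had no summit in any list. That is 83.7%, beside 92.1% (607 of 659) of all genes with such windows, so the histone genes among them were not emptier than the others. The limit that a count of 0 among 43 sets is 8.22% at the upper bound of the exact 95% interval. That bound takes the 43 genes as independent, but they share clusters and copied sequence, so it is too low. The sources used here do not state how reads with several matches were treated when regions were called. The lack of a summit at these genes is therefore not a measured level of 0, and the part of repeated sequence in it was not tested.

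**Figure D1:**
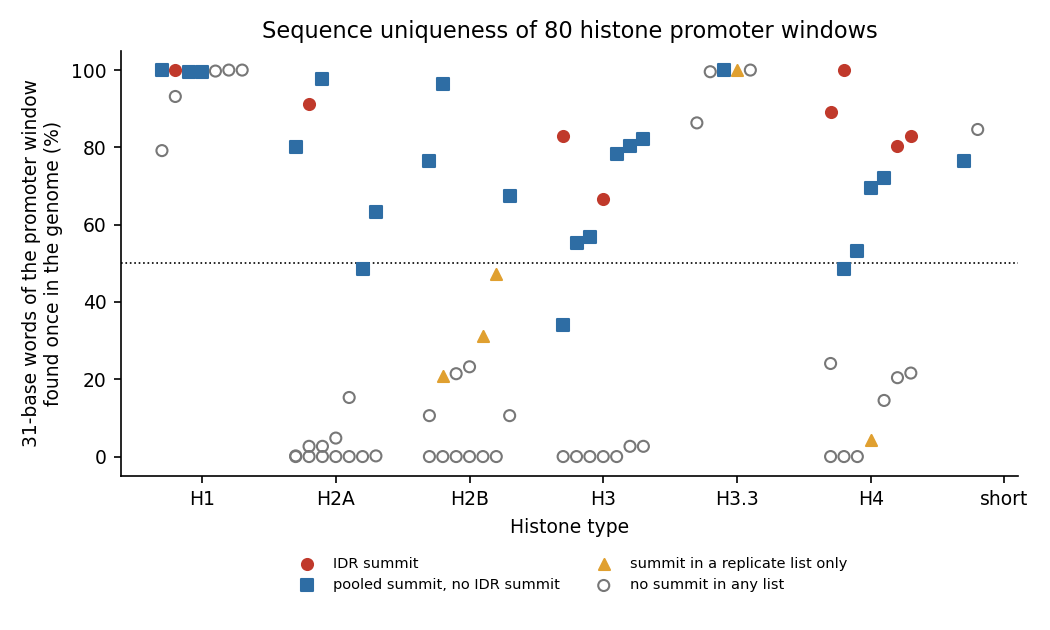
Percentage of 31-base words of each promoter window that occur at 1 place in the genome (vertical axis) for the 80 histone genes by type (horizontal axis, points spread sideways for view), with colour and shape giving the lists that hold a summit. All 8 genes with an IDR summit lie above the dotted line at 50%, and 36 of the 43 genes below it have no summit in any list (83.7%, beside 92.1% of all genes with windows under 50% unique).

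At the 21 core histone genes with windows at least 50% unique, a pooled summit was present every time (21 of 21, 95% Clopper-Pearson interval 83.9% to 100%), beside 36.7% of all protein-coding genes with such windows. Replicate 1 had a summit at 17 of them and replicate 2 at 20. An IDR summit was present at 7 of the 21 (33.3%, 14.6 to 57.0), beside 3.11% of all genes with such windows. By type these were 4 of 7 H4 genes, 2 of 7 H3 genes, 1 of 4 H2A genes and 0 of 3 H2B genes, numbers too small to order the types. One of the H3 genes was his-42, whose IDR summit lay within 200 bp of a small nuclear RNA gene. Over all 37 histone genes with such windows, the linker and H3.3 genes included, 27 had a pooled summit (73.0%). In windows at least 90% unique, 9 of 16 histone genes of any type had a pooled summit (56.2%, all genes 37.6%), and 3 of the 16 an IDR summit (all genes 3.25%). Those 3 were among the 9, where 8.62% of all such genes had one. The core histone windows overlap one another within clusters, and a summit in a neighbour's body can fall in them. Genes that share a region are not independent, so the intervals here are too narrow. Some of the 21 genes had only a low or distant pooled summit. That of his-3 was at −994, with a signal of 82.6 and rank 29414 of 30000. That of his-35 was at −985 with rank 22806, and that of his-41 ranked 26953.

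**Figure D2:**
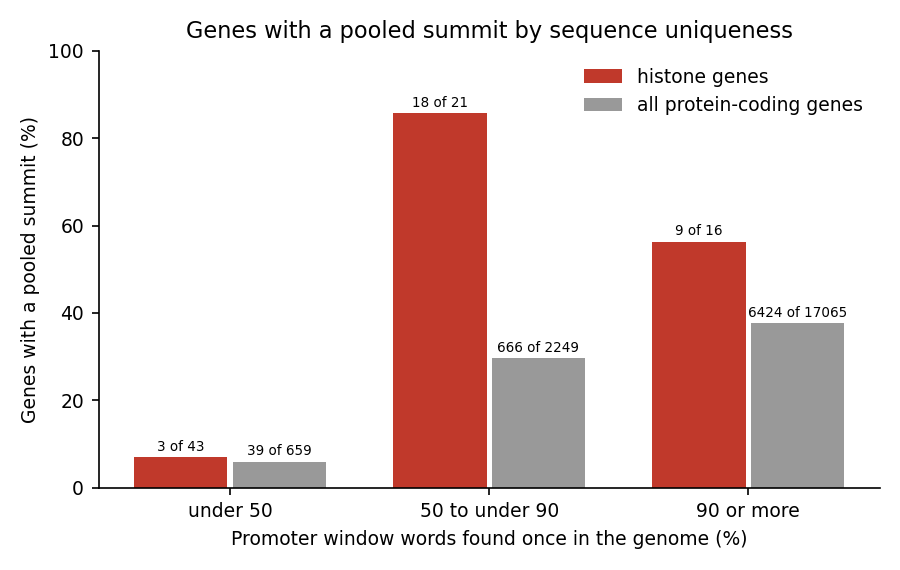
Share of genes, in percent, whose window held a summit of the pooled list (vertical axis, from 0) by the uniqueness of that window (horizontal axis), for histone genes and for all protein-coding genes, with counts above the bars. Below 50% the bars are 3 of 43 and 39 of 659, and from 50 to under 90% they are 18 of 21 and 666 of 2249.

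The summits often sat on histone coding sequence and not in the space between starts. Only summits were placed. The regions around them were 444 bp wide, wider than any of the spaces, so a region could reach into a space. Among the genes named next, his-37 and his-24 had no divergent partner and so no such space. Of the 7 IDR summits at histone genes, 4 lay in the coding sequence of a histone gene (his-60, his-32, his-37 and his-24), while over the whole IDR list 30 of 469 promoter summits (6.40%) lay in coding sequence. In the pooled list it was 19 of the 35 distinct regions, beside 18.8% of all promoter summits. The windows of tightly packed genes reach into the body of the neighbour, so part of these counts follows from gene spacing. A count that does not use promoter windows was therefore made over gene bodies. Of the 64 core histone genes, 16 had a pooled summit inside the gene (25.0%), beside 17.5% of all protein-coding genes of at most 1000 bp. Of the 21 with windows at least 50% unique it was 13 (61.9%), beside 18.4% of all such short genes with windows at least 50% unique. A summit inside the gene in all 3 relaxed lists was found at 12 of the 64 (18.8%), beside 10.6% of all genes of at most 1000 bp. The DNA around the coding summits was itself partly repeated, with a median uniqueness of 76.0% within 100 bp and a range of 0 to 100%, and the part of reads from other copies in them was not tested. Around the other 16 pooled summits the median was 92.7%. Most core gene models appear to lack untranslated ends, so a summit just past the start counts as coding in them.

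The highest histone peak had its summit in the H4 gene his-60, on chromosome IV (IV 7487576 to 7488019). Its signal, the authors' own value for each region and on a different scale in each list, was 375 in the pooled list, 173 in replicate 1 and 208 in replicate 2. The peak ranked 201 of 30000 in the pooled list, 225 in replicate 1 and 188 in replicate 2, so both replicates placed it among their highest regions. Its summit stood 194 bp inside his-60 and at −451 from his-59, the divergent H3 gene, with 81.3% of the words around it unique. With the window closing at 200 bp, his-60 counted by a margin of a few bases. In replicate 2 the summit lay 211 bp in and fell outside the window of his-60. A lower region of 171 had its summit in the space between the genes, at −35 from his-60, and ranked 1162 in replicate 1 and 6191 in replicate 2. Further regions of 127 and 166 had their summits in the body of his-59.

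The neighbouring pair his-61 and his-62, for H2A and H2B, held the highest region in a histone window that missed the IDR list. Its signal was 183 in the pooled list, under the lowest IDR signal of 190, with 71.2 in replicate 1 and 109 in replicate 2. Replicate 2 ranked it 1026 and replicate 1 only 4633. Its summit was also in coding sequence, 163 bp inside his-61, where 50.9% of words were unique. The lowest histone peak inside the IDR list, at his-42, had a signal of 199.

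A second H3 and H4 pair on chromosome IV, his-31 and his-32, had the same layout with the types exchanged. The IDR peak (IV 8334335 to 8334778) had a signal of 319 in the pooled list, 165 in replicate 1 and 162 in replicate 2, with ranks of 284, 247 and 308. Its summit lay 252 bp inside the H3 gene his-32, just past the end of that gene's window, and at −574 from the H4 gene his-31, with 76.0% of words unique. It was therefore counted for his-31 alone, although the summit was in his-32. In replicate 1 the summit was 185 bp inside his-32 and counted for both genes. The other 4 genes of this cluster (his-29, his-30, his-33 and his-34), with windows at most 10.6% unique, had no summit in any list.

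Only the pair his-67 and his-68, for H4 and H2A, had its IDR summit in the space between the starts. The peak (I 9988774 to 9989217) had a signal of 318 in the pooled list, 173 in replicate 1 and 151 in replicate 2, ranking 286, 226 and 355. The summits of the pooled list and replicate 2 coincided, at −233 from his-67 and −136 from his-68, and that of replicate 1 was at −216 and −153. All words of 31 bases within 100 bp of the summit were unique. The same summit lay in the window of alg-5, an Argonaute gene.

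The H4 gene his-37, which has no divergent partner in its cluster with his-35 and his-41, had 2 overlapping IDR regions. The higher (V 9546753 to 9547196) had a signal of 272 in the pooled list, 148 in replicate 1 and 131 in replicate 2, with its summit at −130 from the gene start. The lower (V 9546990 to 9547433) had 203, 100.1 and 106, with its summit 107 bp inside the gene. In replicate 2 the corresponding summits stood at −213 and 18 bp inside the gene. Sequence around both was fully unique. Nearby, the highest pooled regions in the windows of his-35 (H2A) and his-41 (H2B) were 92.0 and 85.8 only. They ranked 22806 and 26953 of 30000. The summit of 92.0 lay at −985 from his-35, 9 bp past the end of his-41.

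The linker histone gene his-24 and the H3 gene his-42 had the 2 IDR peaks on whose rank the replicates differed most. The his-24 peak (X 14489921 to 14490364) had a signal of 230 in the pooled list, 89.9 in replicate 1 and 140 in replicate 2. Its ranks were 1518 in replicate 1 and 436 in replicate 2, and the summits agreed within 2 bp, 49 to 51 bp inside the gene start. The non-coding RNA genes M163.16 and M163.19 lay within 200 bp. The his-42 peak (II 13829066 to 13829509) had 199 in the pooled list, 109 in replicate 1 and 91.5 in replicate 2, ranking 692 and 2272 in the replicates. Its summit was at −591 from the gene, with 55.0% of words unique and the small nuclear RNA gene F08G2.10 within 200 bp. The nearest replicate 2 summit was 174 bp off. That replicate 2 summit stood nearer, at 28 bp, to a second pooled region of 87.2, and the value and rank given for replicate 2 are its own. Of the 7 IDR peaks, 5 were among the 1258 highest regions of both replicates, and these 2 were the exceptions.

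**Figure D3:**
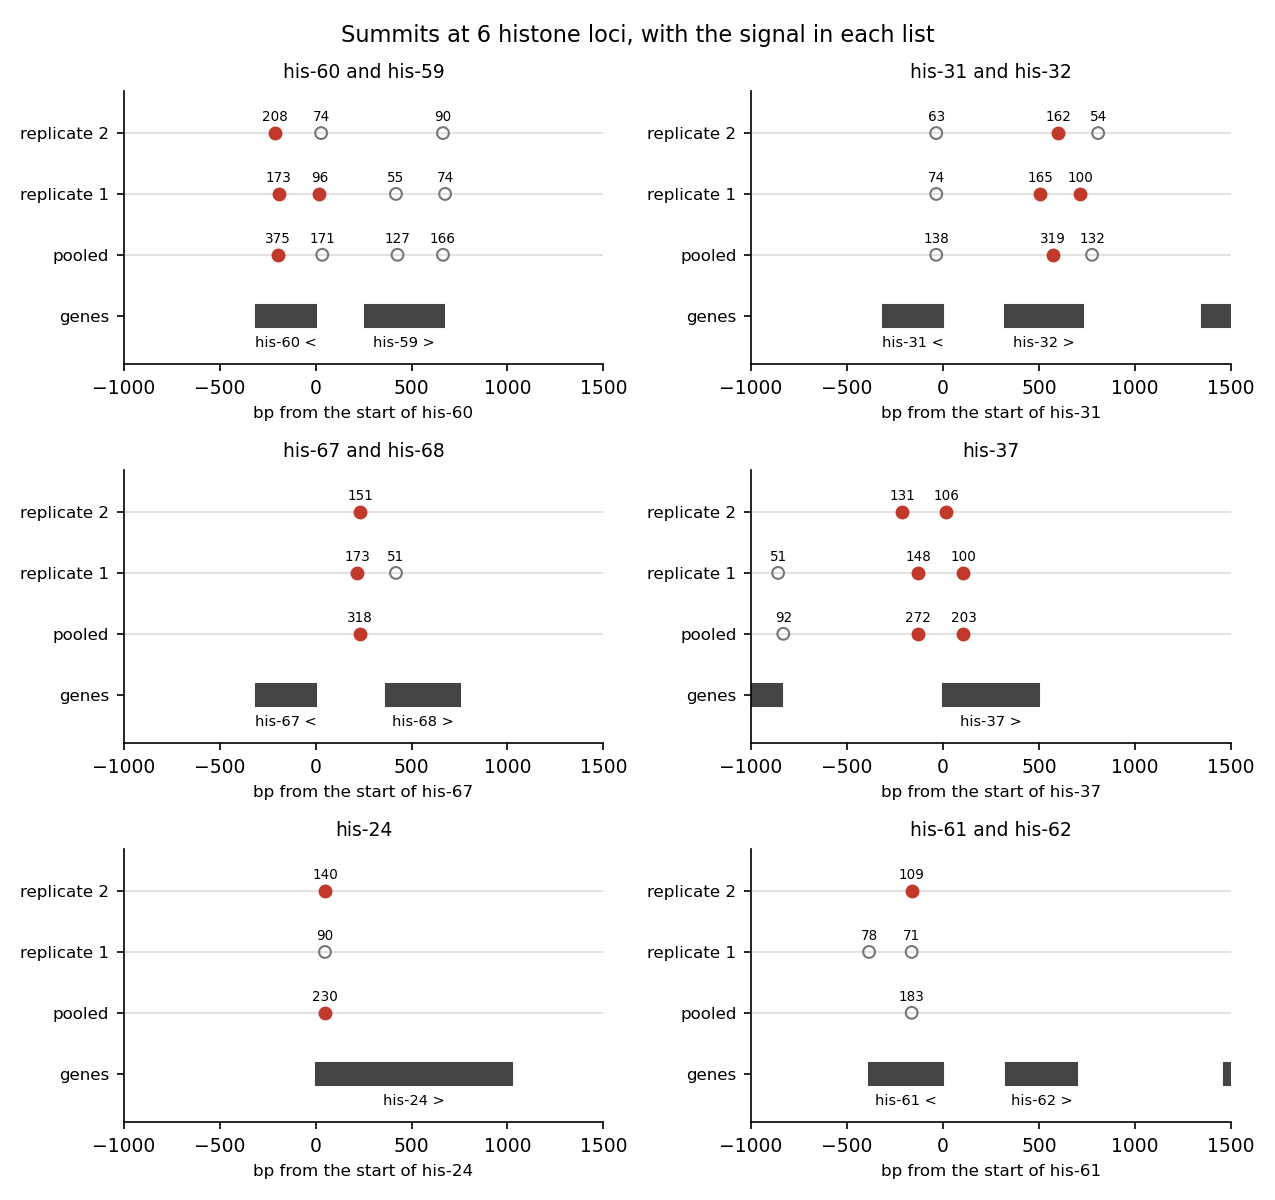
Summits in histone promoter windows at 6 loci, by distance along the plus strand from the start of the named gene (horizontal axis, bp), in the pooled list and each replicate, with the signal written above each point. Filled points are among the 1258 highest regions of their list, dark bars are histone genes and arrows give their strand. At his-60 and his-32 the highest filled points stand over gene bodies, and at his-67 and his-68 the filled points stand between the genes. A further filled point of replicate 1 (95.6) stands between his-60 and his-59.

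The DNA under these summits is printed as 50 bp to either side, along the strand of the nearest histone gene, because 4 of the 6 summits lie in coding sequence. For his-24 the printed part starts at the end of the annotated 5′ untranslated region. None of these 6 windows held any of 6 short words searched on both strands, which are named with the promoters, so none has capitals. The window of the seventh IDR summit, between his-67 and his-68, is not printed and was the only one to hold a word, with GAGAGA at 2 positions.
his-60 summit, chrIV:7487748-7487848, - strand: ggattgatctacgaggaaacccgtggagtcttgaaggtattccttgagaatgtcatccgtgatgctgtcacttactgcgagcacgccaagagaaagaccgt
his-32 summit, chrIV:8334507-8334607, + strand: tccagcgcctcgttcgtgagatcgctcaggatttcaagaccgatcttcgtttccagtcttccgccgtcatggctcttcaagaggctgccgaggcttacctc
his-37 summit upstream of the gene, chrV:9546925-9547025, + strand: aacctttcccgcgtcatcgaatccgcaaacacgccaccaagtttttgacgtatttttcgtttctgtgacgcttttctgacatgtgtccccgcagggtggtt
his-37 summit inside the gene, chrV:9547162-9547262, + strand: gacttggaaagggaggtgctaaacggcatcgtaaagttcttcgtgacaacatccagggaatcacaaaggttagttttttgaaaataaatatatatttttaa
his-24 summit, chrX:14490139-14490193, + strand: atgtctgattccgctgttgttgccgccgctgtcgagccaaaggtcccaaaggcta
his-42 summit, chrII:13829238-13829338, - strand: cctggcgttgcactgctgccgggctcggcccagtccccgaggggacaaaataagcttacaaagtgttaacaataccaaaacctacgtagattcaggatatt

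Each of these windows occurred as a whole at a single place in the genome, although shorter words in some of them recur. Over all IDR summits, 6.12% of such windows held TATAAA, 18.6% CCAAT, 13.6% GAGAGA and 7.47% GGGCGG. The median content of G and C was 49.5% at the 7 histone summits and 47.5% at all IDR summits.

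Of the 6 words, 4 were held by a larger share of histone promoters than of all promoters and 2 by a smaller share. In the 300 bases from 250 upstream to 50 downstream of the start, TATAAA on either strand was present at 51 of 80 histone genes (63.8%) and at 37.9% of all genes. GGGCGG was present at 40.0% against 7.83%. In the 250 upstream bases alone it was at 27.5% against 6.94%, and at 4 of 15 H3 genes. In the 50 bases from the gene start on it was at 14 of 15 H3 genes and at no other histone gene, beside 0.986% of all genes. At core genes these 50 bases are probably coding sequence, since 63 of 64 core gene models have a length that is a multiple of 3. GAGAGA was present at 43.8% against 21.8%, with 70.6% of the H2A and 68.8% of the H2B genes. CCAAT was at 53.8% and 45.5%. TTTGCAT, part of the octamer known from mammalian H2B promoters, was at 6.25% and 9.45%, and TAATTA, a core that many homeodomains bind, at 1.25% and 15.5%. No word contains another. Repeated promoters count many times over in these shares, and a match is a description of the sequence only.

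Across divergent pairs, 2 of 31 shared an IDR peak (all divergent protein-coding pairs 6.36%) and 9 of 31 shared a pooled region (all 39%). The 9 were found among the 11 pairs whose space was more than 50% unique, and none among the 20 others. All 6 such H3 and H4 pairs shared a pooled region, as did his-67/his-68 and, among 4 H2A and H2B pairs, his-61/his-62 and his-35/his-41. The pairs his-8/his-7 and his-4/his-3 did not, although the windows of his-7, his-4 and his-3 each held a pooled summit. Those of his-7 and his-4 lay 239 bp inside his-8 and 300 bp inside his-3, past the 200 bp limit of the partner's window. That of his-3 lay at −994, 330 bp past the end of his-4. A pooled summit lay in the space itself at only 2 pairs, his-67/his-68 and his-60/his-59. At the others the shared summit stood in the body of a partner. The share over all divergent protein-coding pairs with spaces more than 50% unique was not counted. The counts among the 11 pairs therefore have no matching background.

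Genomic clusters, taken as histone genes with starts at most 10000 bp apart, numbered 11 with at least 3 genes, and they ranged from fully covered to empty. All 4 genes of the cluster at IV 7485834 to 7488659 (his-59 to his-62) and all 4 at V 16040144 to 16042831 (his-1 to his-4) had a pooled summit, with median window uniqueness of 80.2% and 68.5%. In the latter the highest region was 158 in the pooled list, with its summit 300 bp inside the H2A gene his-3, and no IDR peak was present. The region in his-3 had 124 in replicate 1, rank 449, and 60.3 in replicate 2, rank 13370. The replicate 1 summit was 152 bp off, 148 bp inside his-3. Around it 34.5% of words were unique, against 83.6% around the pooled summit. A region of 151 had its summit in the H4 gene his-1, with 89.7 and 78.4 in the replicates, and these 2 regions set the pooled values of his-4 and his-2. All 3 genes his-35, his-37 and his-41 also had one.

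At the cluster V 8532715 to 8536716 the windows of his-5, his-6, his-7 and the short gene his-39 held pooled summits, the highest at 107. The window of his-8 held a summit in each replicate list, at different places, but none in the pooled one. The pooled region counted for his-7 (104) had its summit in the body of his-8, 239 bp in. The region at his-5 and his-6 had its summit in coding sequence with 0% unique words and was found in replicate 2 (80.2) but not in replicate 1. In the cluster at IV 11400415 to 11407427, the highest pooled regions in the windows of his-63 (H3) and his-64 (H4) were 130 and 157. The windows of his-65 and his-66 held none. The summit of 130 lay 26 bp past the end of his-64, and that of 157 lay 102 bp past the end of his-63. A region of 120, in both windows, had its summit 29 bp inside his-64.

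The remaining clusters of at least 3 genes were nearly empty. In the largest, 13 genes at II 13817760 to 13828697, 12 genes had windows at most 31.2% unique. The outermost gene his-42, at 66.5%, was the only one with a pooled summit, and his-15, near the other end, had one in replicate 1 alone (60.6). At V 8889488 to 8898539, with 8 genes, his-17 at the edge had a pooled region of 123, whose summit lay in the H4 gene his-18 and which ranked 11661 and 6393 in the replicates. The 6 genes at V 8847393 to 8854053 (his-49 to his-54) had windows with 0% unique words and no summit in any list. The 4 genes at IV 11324056 to 11326998 (his-45 to his-48) had none either, and those at IV 11337853 to 11341703 (his-55 to his-58) had only 1 region of 50.9 in replicate 2, at his-58. Outside these clusters, both genes of the X chromosome pair his-38 and his-40 had a pooled summit. A region of 90.7 in both windows had its summit 119 bp inside his-40. A region of 114, counted for his-40 at −558, had its summit 12 bp past the end of his-38.

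Between the replicates, the regions outside the IDR list varied widely in rank. Of the 35 pooled regions in histone windows, 28 had a replicate 1 summit within 200 bp, 32 a replicate 2 summit and 25 both. All 7 IDR regions were among the 25. The matching was not one to one, and at his-42 the same replicate 2 summit was matched to the IDR region and to a second pooled region. Of the 28 regions outside the IDR list, 18 had both, and the region in his-3 described above was the highest of them in replicate 1.

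**Figure D4:**
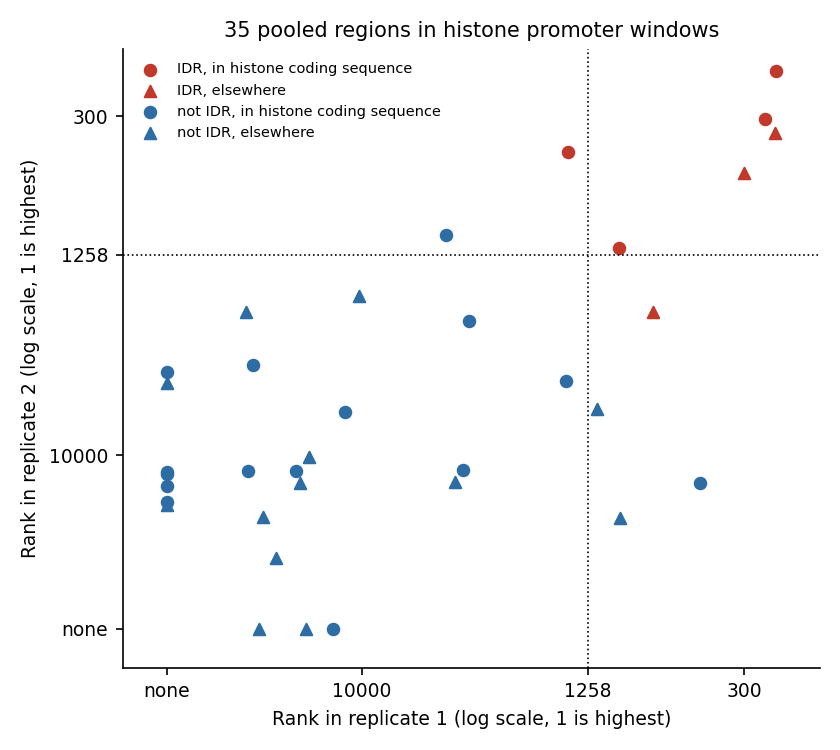
Rank of the nearest summit within 200 bp in replicate 1 (horizontal axis) and replicate 2 (vertical axis), both on log scales with high ranks up and right, for the 35 pooled regions in histone windows. Points at "none" have no summit within 200 bp, dotted lines mark rank 1258, and 5 of the 7 red IDR points lie beyond both lines.

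Linker histone and H3.3 genes stood mostly alone and in unique sequence, and his-24 was the only one of these 14 genes with an IDR peak. Of the 9 linker genes, hil-2, hil-5 and hil-7 had low pooled regions of 94.3, 92.7 and 98.4, that of hil-7 within 200 bp of a snoRNA gene, and hil-1, hil-3, hil-4, hil-6 and hil-8 had no summit in any list. The linker genes' windows were 79.2% to 100% unique. Of the 5 genes for H3.3 or H3.3-like proteins, his-69 had a pooled region of 111, his-71 a summit in replicate 1 only (46.2), and his-70, his-72 and his-74 none. The short genes were his-39, described above, and his-73, which had no summit. With 4 of 9 and 1 of 5 genes having a pooled summit beside 35.7% of all genes, groups this small cannot be told from the background.

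Other genes of histone biology were listed as 20 variants, mRNA-binding proteins and chaperones, of which 13 had a pooled summit (all protein-coding genes 35.7%) and 3 an IDR summit (htz-1, hcp-3 and chaf-2, all genes 3.02%). The gene htz-1 encodes the variant H2A.Z and had a signal of 211 in the pooled list, 106 in replicate 1 and 111 in replicate 2, with its summit 66 bp inside the gene and shared with wapl-1. The gene hcp-3 encodes the centromeric H3 and had 263, 142 and 120, with its summit at −622. The gene chaf-2 encodes a subunit of chromatin assembly factor 1, which deposits new H3 and H4, and had 215, 110 and 102. The chaf-2 summit, at −186, was shared with Y71G12B.30. The stem-loop binding protein gene cdl-1, needed for core histone mRNA, had a pooled region of 183 that missed the IDR list, with 98.5 and 98.8 in the replicates. The genes csr-1, chaf-1, rba-1, hira-1, nap-1 and hmg-3 had no summit in any list.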

How the data were processed

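Per the deposited file listing, the authors made 1 relaxed region list from each replicate alignment against a control alignment, 1 from both pooled, and the IDR list from these, on assembly ce11. No source used here states the aligner, the peak caller or the IDR threshold. The signal is the authors' deposited value per region. A deposited score stands where narrowPeak has its q-value, falls below 0 and was left unused. Read totals are unknown here.

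Summits (column 2 plus column 10 of the narrowPeak files) were assigned to gene starts of Ensembl release 115 (WBcel235), with symbols and product names from RefSeq, which held 19965 of 19973 genes. 22 histone genes had a different name in Ensembl, so RefSeq symbols were used. Of 64 core gene models, 63 have a length that is a multiple of 3, as coding sequence without untranslated ends would. Words of 31 bases were counted over the whole genome on both strands. Analyses used Python 3.11.15, pandas 2.3.3 and scipy 1.17.1, and the window and word steps were tested on simulated data. With 1 group there is no test between samples, and no set test was made. Named were all histone genes with an IDR summit, the 10 highest without, pairs, clusters, linker and H3.3 genes. The members, lists and measures were chosen with earlier results of these data known. The alternatives were other windows, region overlap, stricter lists, single replicates and other word lengths.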

Additional observations from a re-analysis of the deposited data

How the results depend on the processing

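Of 42 alternatives over 7 counts, 32 stayed within 1.5 times the main count. With the window from 500 bp upstream to 100 bp downstream, 5 histone genes in place of 8 had an IDR summit, on 4 peaks in place of 7, and 1 divergent pair in place of 2 shared a peak. A pooled summit was then present at 21 genes in place of 30. Without summits in histone coding sequence, an alternative chosen after seeing the data, 4 genes on 3 peaks remained. Without peaks at tRNA, snoRNA or small nuclear RNA genes, 7 genes on 6 peaks remained, and his-42 was lost. With the window reaching 2000 bp upstream, 44 genes in place of 28 had a replicate 1 summit. Among the highest 10000 regions, 16 genes had a pooled summit, 17 a replicate 1 summit and 17 a replicate 2 summit. Leaving out each replicate, with the 1258 highest regions of the other, gave 8 genes without replicate 1 and 10 without replicate 2, on 7 and 9 peaks, with 2 and 4 pairs sharing a peak. The count without replicate 2 included his-3, his-4 and his-32 and lacked his-24, and that without replicate 1 included his-61 and his-62 and lacked his-42 and his-60. The 40 repeated genes with no pooled summit became 28 to 41 under the alternatives, and 39 with words of 50 or 75 bases. No paired analysis was possible because there is 1 group. Depth is unknown here, and its part in the missing regions was not tested.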
